A study of Mus musculus with 30 samples.

Results

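Knockdown of p53 was set directly against knockdown of lincRNA-p21 on 6 of the 30 arrays of a mouse embryonic fibroblast study. They are the 3 arrays labelled siP53 and the 3 labelled siLincP21 of the experiment the labels call lincP21KD profiling. The 6 arrays were taken by a rule on their titles that used no measured value. Earlier results of these data were known when the arrays and the gene lists below were chosen. The fibroblasts came from E13.5 embryos of C57BL/6 x 129SvJ strain and carried p53 LSL/LSL, a Trp53 allele silenced by a removable stop cassette. In the siP53 group the cells received AdenoCRE for 24 h to restore p53, an siRNA against p53 for 24 h and then 100 nM doxorubicin, a DNA-damaging drug, for 13 h. The siLincp21 group was treated in the same way with an siRNA against lincRNA-p21. Restored p53 and doxorubicin were therefore shared by both groups, and no array of this experiment shows cells without either. A separate experiment, hnRNPKKD profiling, holds the same pair of knockdowns on 6 other arrays (3 each). By the labels, the adenovirus, siRNA and doxorubicin steps of those arrays had the same times and the same doxorubicin dose. The lincP21KD experiment also holds 2 arrays of a non-targeting siRNA, siScramble, with the same times and dose, used here only as values beside the pair. A time course of AdenoCre against AdenoGFP arrays, 5 of each, shows p53 restoration itself, without siRNA and with 500 nM doxorubicin for 0 to 9 h. The labels do not say whether replicates came from separate cultures or embryos, so the p-values measure the spread between these arrays.

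p53 is a transcription factor that DNA damage stabilises. It binds response elements near genes for cell cycle arrest, cell death, repair and its own control, and raises their transcription. LincRNA-p21 is a long non-coding RNA transcribed next to Cdkn1a, itself a p53 target, and was described as a repressor that acts downstream of p53 together with the RNA-binding protein hnRNP K. A direct contrast of the 2 knockdowns asks which genes distinguish loss of the factor from loss of its non-coding target. A gene that both knockdowns move equally gives no difference here.

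The promoter stretches below are shown because they carry elements known for regulators of the gene groups described afterwards. They are RefSeq sequences of GRCm38.p6, on the strand of the gene, 5′ to 3′, from the 250 bases before an annotated start, and capitals mark the matched element. Cdkn1a holds a p53 response element, here 2 adjoining half-sites of 10 bases with at most 1 base off the consensus outside the core. Ifit1 and Ifit3 hold the interferon-stimulated response element, searched as TTTC, any 2 bases, TTTC on both strands. Hmgcs1, chosen after its values were seen, holds the sterol regulatory element TCACCCCAC, searched on both strands.
Cdkn1a, chr17:29090898-29090977, plus strand: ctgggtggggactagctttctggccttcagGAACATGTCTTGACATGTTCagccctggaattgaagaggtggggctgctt
Ifit1, chr19:34640755-34640843, plus strand: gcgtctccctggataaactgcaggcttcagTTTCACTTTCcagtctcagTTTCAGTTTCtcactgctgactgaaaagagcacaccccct
Ifit3, chr19:34583343-34583446, plus strand: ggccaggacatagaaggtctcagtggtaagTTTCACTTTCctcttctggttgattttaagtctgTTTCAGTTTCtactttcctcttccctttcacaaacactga
Hmgcs1, chr13:119690184-119690252, plus strand: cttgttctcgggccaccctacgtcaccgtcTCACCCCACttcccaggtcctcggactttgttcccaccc
Windows existed for 27025 genes, of which 0.0555% held the p53 element, 3.46% the interferon element and 0.555% the sterol element. The interferon element was present in 13 of 30 interferon response genes with a window, the sterol element in 1 of 21 sterol and fatty acid genes and the p53 element in 1 of 61 p53 targets. A match describes letters and is no evidence of binding, and these windows leave out introns, where many p53 elements lie.

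The values are log2 RMA values, a background-corrected and normalized probe set summary. Of 12675 genes tested, 2172 were called at an adjusted p below 0.05 in limma, which is 17.1% of them. In siP53 arrays 973 genes were higher (7.68%) and 1199 were lower (9.46%) than in siLincp21 arrays. The count was 1209 without siLincp21 replicate 1 and 1348 without siP53 replicate 2. Centring each array on its median gave 748 higher and 1526 lower calls, so the share of calls that were higher was 32.9%, against 44.8% with the values as deposited. The differences were mostly small, with a median absolute difference of 0.14 and a median standard error of 0.089 on the log2 scale. At least 2-fold differences were called for 159 genes, 54 higher and 105 lower. Arrays of one group correlated at 0.9952 to 0.9981, and siP53 with siLincp21 arrays at 0.9856 to 0.9921, over the tested genes. Each gene is given by its brightest probe set. Of 56 named genes with a call and other probe sets, 31 had at least 1 other probe set with under 50% of the difference or the opposite sign. The siP53 replicate 2 array had the highest median over all probe sets, 5.656 against 5.546 to 5.582 for the other 5 arrays.

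All 13 fibroblast markers were above the expression filter. Pdgfra and Dcn, a growth factor receptor and a matrix proteoglycan of fibroblasts, were higher in siP53 arrays by 0.43 ± 0.09 and 0.45 ± 0.09 (log2 difference ± SE). Col1a1, a fibrillar collagen chain, was lower by -0.35 ± 0.07. The dimmer probe sets of Dcn and Col1a1 gave 0.04 and 0.05, and the calls of Pdgfra and Col1a1 were lost when a gene's probe sets were averaged. The macrophage markers Ptprc, Adgre1 and Itgam were below the filter, while 2 of the 8 that passed it were lower in siP53 arrays. These were Cd68, a lysosomal glycoprotein, at 5.57, 5.68 and 5.83 in siP53 arrays and 7.58, 7.25 and 7.17 in siLincp21 arrays, and Cd14, an endotoxin co-receptor, with a difference of -0.48. Of the 8 macrophage markers, 4 had differences above 0 and 4 below, with a median of 0.02. Over all tested genes, 9.46% were called lower. On the AdenoCre arrays of the time course, Cd68 and Cd14 were above their AdenoGFP level at all 5 times. The summed level of the 8 macrophage markers was 9.23 on each siP53 array and 9.58 to 9.66 on siLincp21 arrays (log2 of the sum), and its part in the results was not tested. Bright members weigh most in such a sum, and Cd14 and Cd68 averaged 8.40 and 7.33 on siLincp21 arrays. The sum therefore largely repeats these genes. In bulk RNA, fewer cells of a type and less RNA per cell cannot be told apart. The transcripts of Trp53 and lincRNA-p21 were not analysed here, so neither knockdown was checked at its own target. Hnrnpk, the partner protein named above, stood at 12.75, 13.14 and 12.96 in siP53 arrays and 12.80, 12.92 and 12.97 in siLincp21 arrays. The groups overlapped, with a difference of 0.06 ± 0.11 (limma adjusted p = 0.751, 95% interval -0.18 to 0.30).

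Canonical p53 targets were mostly lower in siP53 arrays. Of 72 tested members in 5 role lists, 49 were called lower and 3 higher, with a median difference of -0.69, against 9.46% lower calls and a median of 0.008 over all genes. Cdkn1a, the cyclin-dependent kinase inhibitor p21 that holds cells in G1, stood at 10.53, 10.31 and 10.68 in siP53 arrays and 12.66, 12.57 and 12.52 in siLincp21 arrays. The groups were far apart, with a difference of -2.08 ± 0.10 (4.23-fold, adjusted p = 7.52e-06). The siScramble arrays gave 12.48 and 12.68, just below and just above the siLincp21 arrays. The promoter stretch of Cdkn1a with its p53 element is printed above. The other 17 tested genes of the Cdkn1a neighbourhood on chromosome 17 had no call in lincP21KD, where 17.1% of all genes were called. At an unadjusted limma p below 0.05, 3 of them were higher. On the hnRNPKKD arrays the list of 18 genes, Cdkn1a included, had 2 called higher and 2 lower. Over all tested genes the shares there were 12.7% higher and 16.0% lower.

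**Figure D1:**
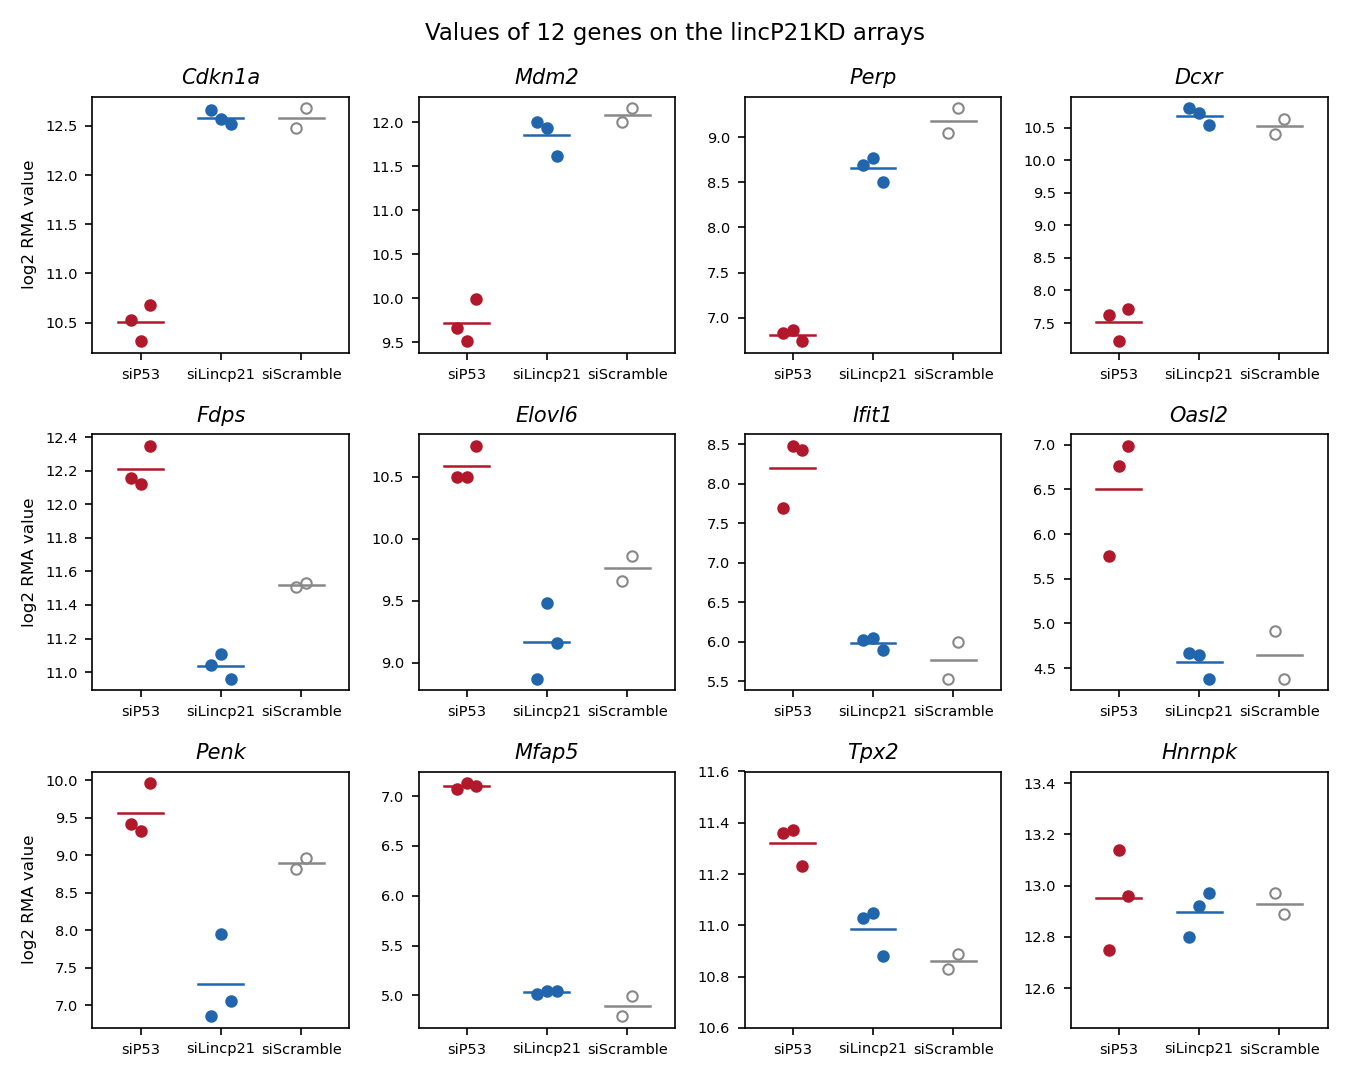
Log2 RMA values of 12 genes on the lincP21KD arrays, siP53 left, siLincp21 next and siScramble (open circles) right; points are arrays and bars are group means, and each panel has its own y axis. The siP53 and siLincp21 points do not overlap except for Hnrnpk. The other genes shown were all called, and 2170 of the 2172 called genes had no overlap, so this separation came with their choice. Cdkn1a averaged 10.50 in siP53 and 12.58 in siLincp21 arrays.

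Among the feedback genes, 8 of 10 were lower and none higher. Mdm2, the ubiquitin ligase that degrades p53, had 9.66, 9.51 and 9.99 in siP53 arrays and 12, 11.94 and 11.62 in siLincp21 arrays. Its difference was -2.13 ± 0.14, with adjusted p = 4.28e-05. Trp53inp1, a stress protein that cooperates with p53, was lower by -1.79 ± 0.20. Ccng1, a cyclin that recruits phosphatase to Mdm2, and Zmat3, an RNA-binding zinc finger protein, were lower by -1.20 ± 0.09 and -0.94 ± 0.07.

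Of 12 cell cycle arrest genes, 6 were lower and none higher. Btg2, an anti-proliferative cofactor, had 8.20, 8.12 and 8.45 in siP53 arrays and 10.60, 10.46 and 10.03 in siLincp21 arrays, a difference of -2.11 ± 0.15 (adjusted p = 5.78e-05). Psrc1, a microtubule-associated p53 target, and Rprm, a cytoplasmic inhibitor of G2 progression, were lower by -1.62 ± 0.08 and -1.37 ± 0.13. The other 6 had no call.

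Cell death genes had 12 of 15 members lower and none higher. Perp, a desmosomal protein needed for p53-dependent death, had 6.83, 6.86 and 6.74 in siP53 arrays and 8.69, 8.77 and 8.50 in siLincp21 arrays. The difference was -1.84 ± 0.09 (3.58-fold, adjusted p = 6.65e-06). Fas, a death receptor, was lower by -1.71 ± 0.13, Apaf1, the scaffold of the apoptosome, by -1.17 ± 0.08 and Ei24, an endoplasmic reticulum protein, by -0.78 ± 0.07. In the wider list of apoptosis machinery, which shares members with these, 6 of 28 were lower and 1 higher. Pmaip1, the BH3-only protein Noxa, was at 6.81, 6.73 and 7.51 in siP53 arrays and 8.57, 8.73 and 8.18 in siLincp21 arrays, and Tnfrsf10b, the TRAIL receptor, was lower by -0.77 ± 0.14.

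Stress and metabolism targets had 18 of 25 members lower. Dcxr, which reduces xylulose and dicarbonyls, held the largest difference of any named gene. It stood at 7.63, 7.22 and 7.72 in siP53 arrays and 10.80, 10.72 and 10.54 in siLincp21 arrays, a difference of -3.16 ± 0.13 (8.94-fold, adjusted p = 2.91e-06). Ddit4l, an inhibitor of mTOR signalling, was lower by -1.71 ± 0.10 and Pltp, a phospholipid transfer protein, by -1.50 ± 0.09. Tap1, the antigen peptide transporter, was lower by -1.37 ± 0.08 on its brightest probe set, while its other 3 probe sets lay between -0.09 and 0.09. Sesn1, a sestrin of the antioxidant response, was the 1 member higher, at 0.40 ± 0.08, and it lost its call without siLincp21 replicate 1 (adjusted p = 0.0526).

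DNA repair targets were mixed, with 5 of 10 lower and 2 higher. Zfp365, a protein of replication fork stability, had 7.07, 7.19 and 7.57 in siP53 arrays and 9.26, 9.29 and 9.08 in siLincp21 arrays, a difference of -1.93 ± 0.13. Ercc5, the 3′ endonuclease of nucleotide excision repair, Polk, a translesion polymerase, and Mgmt, which removes alkyl groups from guanine, were lower by -1.53 ± 0.12, -0.91 ± 0.08 and -0.92 ± 0.12. The second probe set of Ercc5 gave 0.02, and that of Zfp365 gave -1.10. Rrm2b, the p53-inducible ribonucleotide reductase subunit, was higher by 0.42 ± 0.07, as was Polh, another translesion polymerase, by 0.34 ± 0.10. Sesn1, Rrm2b and Polh were named after their values were seen, and the call of Polh was lost without any one of 5 arrays (adjusted p 0.0711 to 0.118).

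The 12 lowest genes by the naming rule were Dcxr, Mdm2, Btg2 and Cdkn1a, described above, and 8 others. Dpyd, which starts pyrimidine breakdown, had 4.54, 4.93 and 5.22 in siP53 arrays and 7.77, 7.55 and 8.28 in siLincp21 arrays, with 6.2 and 6.43 in siScramble arrays between them. Its difference was -2.97 ± 0.21, and its other 2 probe sets gave -1.60 and -0.06. Celf5, an RNA-binding protein of the CELF family, was lower by -2.85 ± 0.09 and Acaa1b, a peroxisomal thiolase, by -2.69 ± 0.09. Acaa1b stood below the filter limit of 4.544 on each siP53 array, at 4.19, 4.43 and 4.48, against 7.0, 7.04 and 7.14 on siLincp21 arrays. Cox6b2, a testis form of a cytochrome oxidase subunit, Tbc1d8, a Rab GTPase-activating protein, and Tex15, a protein of meiotic repair, were lower by -2.34 ± 0.11, -2.32 ± 0.09 and -2.26 ± 0.16. The other probe set of Tbc1d8 gave -0.69, and those of Mdm2 gave -2.31 and -0.33. Cdc42bpg, a kinase bound by Cdc42, and Fgfbp3, which binds fibroblast growth factors, were lower by -2.14 ± 0.08 and -2.05 ± 0.10.

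Among the pathway lists, sterol and fatty acid synthesis had the largest share of higher calls. Of its 28 tested genes, 23 were called higher and none lower, all 28 differences were above 0, and the median was 0.69. Fdps, the synthase of farnesyl pyrophosphate, had 12.16, 12.12 and 12.35 in siP53 arrays and 11.04, 11.11 and 10.96 in siLincp21 arrays, with 11.51 and 11.53 in siScramble arrays. Its difference was 1.17 ± 0.09 (2.25-fold, adjusted p = 6.98e-05), and its second, dimmer probe set gave a difference that rounded to 0. Elovl6, a fatty acid elongase, had 10.50, 10.50 and 10.75 in siP53 arrays and 8.87, 9.48 and 9.16 in siLincp21 arrays, a difference of 1.41 ± 0.15. Srebf2, the transcription factor that binds sterol elements, was higher by 0.64 ± 0.07 and Pmvk, the phosphomevalonate kinase, by 0.74 ± 0.09. Hmgcs1, the synthase before the rate-limiting step, whose sterol element is printed above, was higher by 0.67 ± 0.16 and lost its call without siLincp21 replicate 1 (adjusted p = 0.0759) or 2 (adjusted p = 0.0566). On the siScramble arrays the list lay between the groups: its median relative level was 0.25, 0.21 and 0.62 on siP53 arrays, -0.47, -0.41 and -0.25 on siLincp21 arrays and -0.21 and -0.17 on siScramble arrays.

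Interferon response genes were also higher in siP53 arrays. Of 37 tested, 19 were called higher and 1, Tap1, lower, with a median of 0.43. Ifit1, an antiviral protein that binds foreign RNA caps, had 7.69, 8.48 and 8.43 in siP53 arrays and 6.02, 6.05 and 5.89 in siLincp21 arrays, a difference of 2.21 ± 0.19 (4.62-fold, adjusted p = 0.000136). Oasl2, of the oligoadenylate synthetase family, had 5.76, 6.76 and 6.99 in siP53 arrays and 4.67, 4.65 and 4.38 in siLincp21 arrays, so its siP53 values were spread over more than 1 log2 unit. Usp18, the protease that removes ISG15, was higher by 1.79 ± 0.19, Ifit3, a partner of Ifit1, by 1.46 ± 0.13 and Igtp, an immunity-related GTPase, by 1.00 ± 0.10. The list's median relative level was 0.06, 0.23 and 0.38 on siP53 arrays and -0.19, -0.27 and -0.19 on siLincp21 arrays, so the groups did not overlap. The siScramble arrays lay lower still, at -0.38 and -0.49. Of the 14 genes of the list called higher that had a promoter window, 8 held the interferon element, against 5 of the 16 not called higher. Among all tested genes with a window the share was 2.91%, and among those called higher 5.03%. The element's part in the calls was not tested. With the lowest 60% of probe sets left out, which left 9671 tested genes in all, 11 genes of the list were called higher.

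**Figure D2:**
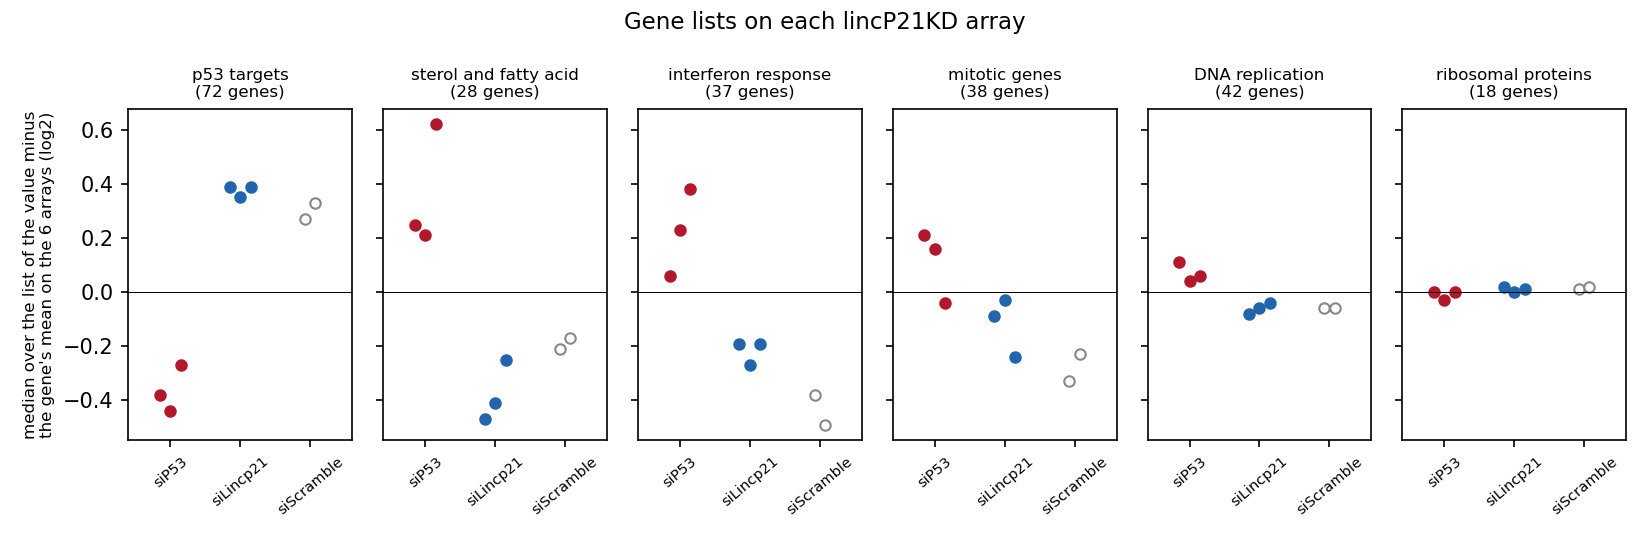
Median over each gene list of the value minus the gene's mean on the 6 arrays (log2, y axis) for each lincP21KD array, siP53 left, siLincp21 next, siScramble (open circles) right. In the p53 target panel siP53 arrays lie at -0.38, -0.44 and -0.27 and siLincp21 arrays at 0.39, 0.35 and 0.39, while ribosomal proteins stay within 0.03 of 0 on all 8 arrays.

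The other genes among the 12 highest had varied roles. Penk, the enkephalin precursor, had 9.42, 9.32 and 9.96 in siP53 arrays and 6.85, 7.95 and 7.05 in siLincp21 arrays, a difference of 2.28 ± 0.27 (4.87-fold), while the siScramble arrays stood at 8.82 and 8.96. Mfap5, a microfibril glycoprotein, had 7.07, 7.13 and 7.10 in siP53 arrays and 5.01, 5.04 and 5.04 in siLincp21 arrays, with 4.79 and 4.99 in siScramble arrays. Mbnl3, a muscleblind splicing factor, had 7.95, 8.08 and 7.96 in siP53 arrays and 5.94, 6.28 and 5.70 in siLincp21 arrays, with 7.53 and 7.56 in siScramble arrays. For Penk and Mbnl3 the siScramble arrays were thus nearer to siP53, and for Mfap5 nearer to siLincp21. Coch, an extracellular cochlin, Ppbp, a platelet chemokine, and Cdo1, the cysteine dioxygenase, were higher by 1.78 ± 0.13, 1.75 ± 0.23 and 1.65 ± 0.11. Pag1, a membrane adaptor for Src family kinase control, and Hoxd13, a limb patterning factor, were higher by 1.65 ± 0.09 and 1.64 ± 0.09. Snn, stannin, was higher by 1.59 ± 0.12, and its siScramble values of 8.15 and 8.14 were close to the siP53 mean of 8.30 and above the siLincp21 mean of 6.71. The other probe sets of Pag1 and Snn gave differences of 0.02 to 0.14 and 0.08, that of Mfap5 gave 0.90 and those of Mbnl3 gave 0.65 and 0.92.

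Cell cycle genes differed by small amounts. Of 38 mitotic genes, 7 were called higher and none lower, 37 differences were above 0, and the median was 0.21, so the called share was above the 7.68% of all genes but the differences were small. Dlgap5, a spindle protein, Tpx2, which activates Aurora A, and Ndc80, of the kinetochore, were higher by 0.33 ± 0.08, 0.33 ± 0.08 and 0.30 ± 0.08. Cdc25b, a phosphatase that starts mitosis, was higher by 0.55 ± 0.15. The mitotic list's median relative level was 0.21, 0.16 and -0.04 on siP53 arrays and -0.09, -0.03 and -0.24 on siLincp21 arrays, so the groups overlapped. The mitotic count was 0 without siP53 replicate 1, siP53 replicate 2 or siLincp21 replicate 1, 4 without siLincp21 replicate 2, 3 without siLincp21 replicate 3, and 4 with centred arrays. Of 42 DNA replication genes, 9 were higher and 1, Rrm2, was lower, with a median of 0.14. Lig1, the replicative DNA ligase, had 9.74, 9.63 and 9.73 in siP53 arrays and 8.98, 9.15 and 9.04 in siLincp21 arrays, a difference of 0.64 ± 0.08. Pole, the leading-strand polymerase, and Rpa3 and Rpa2, of the single-strand binding complex, were higher by 0.43 ± 0.09, 0.37 ± 0.08 and 0.31 ± 0.07. The replication count was 3 without siP53 replicate 1 or siLincp21 replicate 1, and 5 without siP53 replicate 3, with centred arrays or with no filter.

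Among cyclin, E2F and RB family genes 7 of 31 were higher and 4 lower, where 7.68% of all genes were higher and 9.46% lower. Rb1, the retinoblastoma protein, was lower by -1.15 ± 0.10 and E2f5, a repressive E2F, by -0.55 ± 0.07, while Ccne2, cyclin E2, and E2f8, an atypical E2F, were higher by 0.67 ± 0.10 and 0.52 ± 0.08. The second probe set of Rb1 gave -0.02 and that of E2f8 gave 0.06, and those of E2f5 gave -0.48 and 0.23. Growth factors and receptors had 11 of 33 higher and 3 lower, with 7 higher without siLincp21 replicate 1 or siP53 replicate 3. Igfbp3 and Igfbp4, which bind insulin-like growth factors, were higher by 1.28 ± 0.14 and 0.90 ± 0.10, and Gas6, the ligand of Axl, and Pdgfa, a platelet-derived growth factor chain, were lower by -0.75 ± 0.10 and -0.74 ± 0.09. The second probe set of Gas6 gave 0.03.

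Inflammatory genes had 7 of 25 higher and none lower, led by Il1rn, the interleukin 1 receptor antagonist, at 1.33 ± 0.12, and the chemokines Ccl5 at 1.28 ± 0.12, Cxcl5 at 0.69 ± 0.08 and Ccl9 at 0.73 ± 0.12. Over all tested genes, the share to set beside these counts was 7.68% higher and 9.46% lower. Matrix genes had 5 of 36 higher and 5 lower. Col18a1, the precursor of endostatin, was lower by -1.44 ± 0.12 and Col11a1, a fibrillar collagen chain, by -0.62 ± 0.08, while Fmod, fibromodulin, was higher by 1.39 ± 0.15. Of 24 matrix proteases and inhibitors 6 were lower, among them Sulf2, a heparan endosulfatase, by -1.35 ± 0.11 and Mmp14, a membrane collagenase, by -0.85 ± 0.10. The other 2 probe sets of Sulf2 gave -1.45 and 0.04, and the other 5 of Fmod gave 0.28 to 0.66. Contractile and TGF-beta genes had 5 of 31 higher and 3 lower, chromatin regulators 6 of 34 higher and 1 lower, and hypoxia and glycolysis genes 6 of 30 higher and 3 lower. Unfolded protein and amino acid stress genes had 2 of 31 higher and 6 lower, immediate early genes 2 of 30 higher and 3 lower, and NRF2 targets 3 of 23 higher and 1 lower. Repair and checkpoint genes had 3 of 27 higher and 2 lower, hnRNP and splicing factors 2 of 41 higher, RNA interference machinery 2 of 13 higher and 1 lower, and histones 1 of 3 lower. The called shares of immediate early genes, NRF2 targets and repair and checkpoint genes were near the 17.1% of all genes. That of hnRNP and splicing factors was under it. Of the other marker lists, 2 of 7 epithelial genes were higher and 1 lower, 2 of 9 neural genes higher and 2 lower, 2 of 4 adipocyte genes higher and 1 of 6 chondrocyte genes higher. None was called among 3 endothelial, 6 skeletal muscle and 4 sex-linked genes, nor at an unadjusted p below 0.05. No ribosomal protein gene of 18 was called in limma, and 1 of 28 proteasome genes was, both under 17.1%. At an unadjusted p below 0.05 the counts were 0 for ribosomal proteins and 1 for the proteasome. Where a list above had none called in a direction, the count at an unadjusted p below 0.05 was 0 as well for feedback, arrest, death, mitotic and sterol genes, and 2 for lower inflammatory genes.

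The same contrast on the hnRNPKKD arrays, which share no array with the pair above, gave 3637 calls (28.7%), of which 1614 were higher (12.7%) and 2023 lower (16.0%) in siP53 arrays. One array of that experiment, siP53 replicate 2, stood apart, with correlations of 0.9759 to 0.9867 with its own group against 0.9951 between the other pair. Without it, 5803 genes were called, and 2298, 2298 and 2372 were called without siP53 replicate 1, siLincp21 replicate 1 and siLincp21 replicate 2. Both experiments called 474 genes higher, 48.7% of the higher calls of lincP21KD and 29.4% of those of hnRNPKKD. They called 809 lower, 67.5% and 40% of the lower calls. Over all tested genes the differences of the 2 experiments correlated at r = 0.646, a description across genes, which are not independent.

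The p53 targets were called lower in both experiments for 47 of 72 genes, against 809 of all 12675 tested genes. Their median was -0.69 in lincP21KD and -1.52 in hnRNPKKD. All 12 lowest genes were called lower in hnRNPKKD as well. Cdkn1a stood there at 10.52, 11.41 and 10.61 in siP53 arrays and 13.73, 13.81 and 13.86 in siLincp21 arrays. Its siLincp21 arrays there were above those of lincP21KD, and its siP53 replicate 2 was above the other siP53 arrays of either experiment. The median relative level of the p53 targets on that array was -0.48, against -0.86 and -0.95 on the other siP53 arrays of hnRNPKKD and 0.76, 0.78 and 0.71 on its siLincp21 arrays. The 8 genes with the largest shared difference were Dcxr, Dpyd, Celf5, Acaa1b, Cox6b2, Tbc1d8, Tex15 and Cdc42bpg, at -2.96 to -4.76 in hnRNPKKD. Sterol and fatty acid genes were called higher in both experiments for 22 of 28, against 474 of all 12675 tested genes. Their medians were 0.69 in lincP21KD and 0.92 in hnRNPKKD. Of the 12 highest genes, 7 were called higher in hnRNPKKD too.

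**Figure D3:**
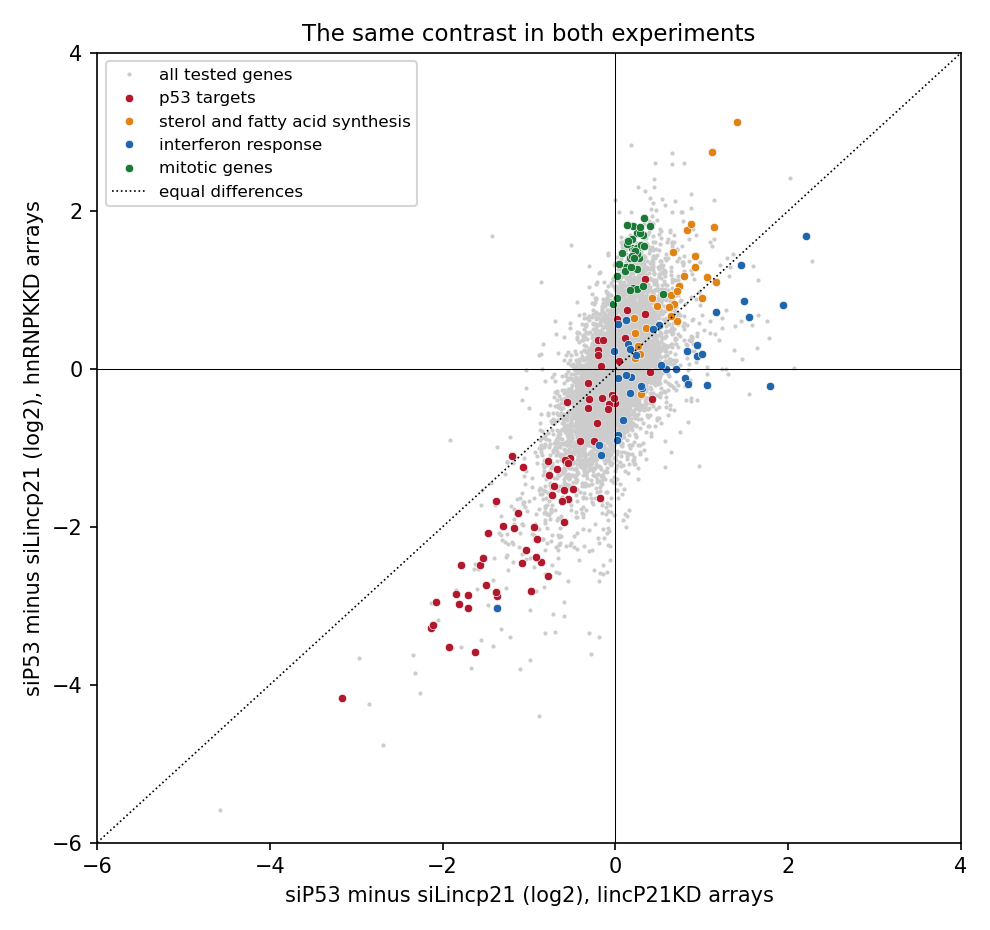
Log2 difference of siP53 minus siLincp21 for 12675 tested genes on the lincP21KD arrays (x axis) and the hnRNPKKD arrays (y axis), with 4 gene lists coloured and a dotted line of equal differences. Most p53 targets lie at the lower left, below the dotted line, and the mitotic genes lie near 0 on the x axis and above it on the y axis.

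The difference between the experiments was tested in one fit, as lincP21KD minus hnRNPKKD, and 1952 genes were called (15.4%), 1073 with a higher value in lincP21KD (8.47%) and 879 with a lower one (6.93%). Of these, 1797 (92.1%) had the larger absolute difference in hnRNPKKD. Without hnRNPKKD siP53 replicate 2 the count was 4220. Of 38 mitotic genes, 7 were higher in lincP21KD and 37 in hnRNPKKD, with medians of 0.21 and 1.46. The test of the difference called 35 of them, and 35 also without the array that stood apart. Tpx2 was 10.27, 10.31 and 10.39 in siP53 arrays and 8.88, 8.72 and 8.68 in siLincp21 arrays of hnRNPKKD, a difference of 1.56 against 0.33 in lincP21KD (adjusted p of the difference = 6.89e-05). Of 42 replication genes, 9 were higher in lincP21KD and 32 in hnRNPKKD, and 23 were called in the difference.

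Of 72 p53 targets, 37 were called in the difference with a higher value in lincP21KD. In 36 of these the difference was below 0 in both experiments and nearer 0 in lincP21KD, such as Psrc1 at -1.62 in lincP21KD and -3.58 in hnRNPKKD. The other one, Rrm2b, was at 0.42 in lincP21KD and -0.38 in hnRNPKKD. Polh was the 1 member called the other way, at 0.34 in lincP21KD and 1.14 in hnRNPKKD. Of 37 interferon genes, 19 were called higher and 1 lower in lincP21KD, and 8 higher and 6 lower in hnRNPKKD, with medians of 0.43 and 0.05. Over all tested genes, 12.7% were higher and 16.0% lower in hnRNPKKD, so the 6 lower calls were near the share of all genes. The count of interferon genes called higher in hnRNPKKD was 2 without siLincp21 replicate 1 or 2, 3 without siP53 replicate 1 and 5 without siP53 replicate 3. The test of the difference called 9 of them higher in lincP21KD, of which 3 were called higher within lincP21KD and 6 were called lower within hnRNPKKD. The count of 9 was 23 without hnRNPKKD siP53 replicate 2 and 4 without lincP21KD siP53 replicate 2. It was 3 without hnRNPKKD siP53 replicate 1, hnRNPKKD siLincp21 replicate 2, lincP21KD siP53 replicate 3 or lincP21KD siLincp21 replicate 1 or 2. Usp18 was one of the 9, at 1.79 in lincP21KD and -0.22 in hnRNPKKD, where its siP53 arrays of 6.4, 8.25 and 6.65 overlapped the siLincp21 arrays of 6.78, 7.22 and 7.97. Mfap5 was higher by 2.07 in lincP21KD and differed by 0.01 in hnRNPKKD (adjusted p of the difference = 0.000278). Its level also differed between the experiments. It stood at 8.25, 8.72 and 7.71 in siP53 arrays and 8.36, 8.28 and 8.01 in siLincp21 arrays of hnRNPKKD, all above its lincP21KD values. Which step separates the experiments cannot be told apart from these labels, since each experiment is a set of its own.

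The 6 genes with the largest difference between experiments were Scn3b, a sodium channel subunit, Icam1, an adhesion receptor, Plek2, a pleckstrin family protein, Nipal4, a magnesium transporter, St14, the protease matriptase, and Cemip, a hyaluronan-degrading protein. Icam1 stood at 4.45, 4.75 and 5.02 in siP53 arrays and 4.97, 4.91 and 5.18 in siLincp21 arrays of lincP21KD, without a call. In hnRNPKKD it stood at 4.06, 4.97 and 4.20 in siP53 arrays and 8.0, 7.96 and 8.11 in siLincp21 arrays. Scn3b, Plek2, Nipal4 and St14 had differences of -0.19 to -0.99 in lincP21KD, where all but Plek2 were called lower, and of -3.35 to -4.40 in hnRNPKKD. The second probe set of Scn3b gave 0.03 in lincP21KD. Their lincP21KD values of 3.6 to 5.83 lay around the filter limit of 4.544, which was set on the mean over all 30 arrays. Nipal4 was below that limit on each of the 6 lincP21KD arrays, at 3.6 to 3.97. It lost its call there without siLincp21 replicate 1 (limma adjusted p = 0.065) or siP53 replicate 2 (adjusted p = 0.0574). Cemip differed in sign, lower by -1.43 ± 0.13 in lincP21KD, where its other probe sets gave -0.48 and -0.08, and higher by 1.68 in hnRNPKKD.

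**Figure D4:**
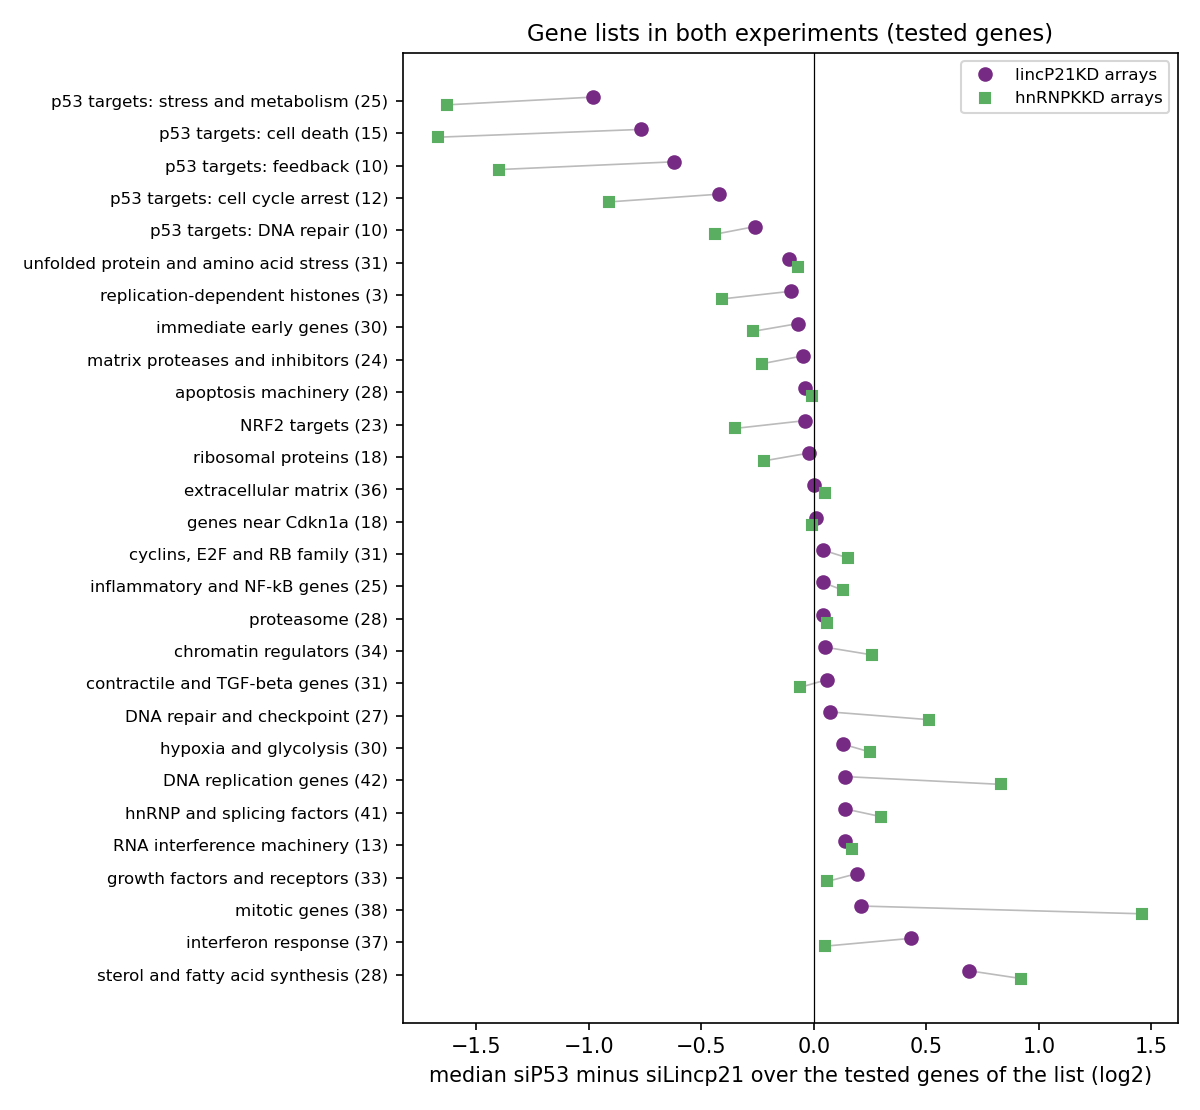
Median siP53 minus siLincp21 difference (log2, x axis) over the tested genes of each pathway list (y axis, number of tested genes in brackets) on lincP21KD arrays (circles) and hnRNPKKD arrays (squares). The 5 p53 target lists are below 0 in both, sterol and fatty acid genes above 0 in both, and mitotic genes at 0.21 in lincP21KD and 1.46 in hnRNPKKD.

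The time course of p53 restoration gave values on arrays that were not part of the contrast. There cells received AdenoCre, or AdenoGFP as control, for 24 h and then 500 nM doxorubicin for 0, 1, 3, 6 or 9 h, with 1 array each, and no test was made. Of the 105 genes at least 2-fold lower in siP53 arrays, 88 (83.8%) were above their AdenoGFP level on the AdenoCre arrays at all 5 times, against 21.1% of all tested genes. Their median AdenoCre minus AdenoGFP difference was 0.64, 0.87, 1.21, 2.22 and 2.10 at 0, 1, 3, 6 and 9 h. Cdkn1a was above by 3.50, 3.46, 3.96, 4.49 and 3.83. Dpyd, although among the 12 lowest genes, differed by -0.10, 0.09, 0.16, 0.55 and 1.79. Of the 54 genes at least 2-fold higher in siP53 arrays, 29 (53.7%) were below their AdenoGFP level at all 5 times, against 11.1% of all tested genes. Ifit1 was below by -1.65, -1.48, -1.16, -1.88 and -1.47, whereas Snn was above at all 5 times, by 0.40 to 0.74.

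**Figure D5:**
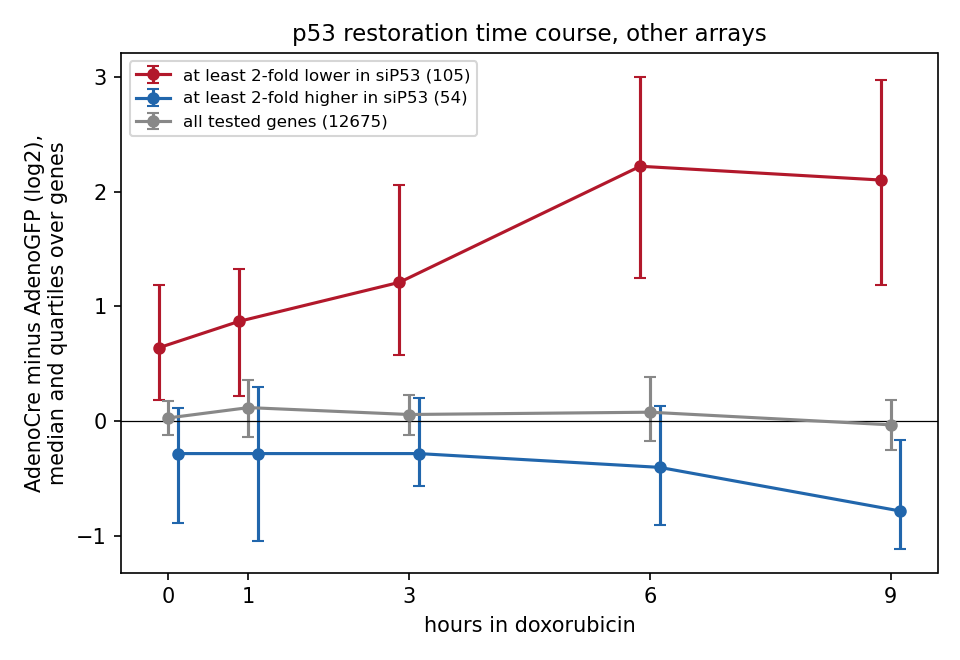
AdenoCre minus AdenoGFP difference (log2, y axis) by hours in doxorubicin (x axis); points are medians and bars quartiles over genes at least 2-fold lower in siP53 arrays (105 genes), at least 2-fold higher (54) and all tested (12675). The median of the first group is 0.64 at 0 h and 2.10 at 9 h, and that of all genes stays between -0.03 and 0.12.

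The 2 siScramble arrays showed on which side of the contrast the untargeted cells lay. The ends of this scale are the arrays that also chose the genes, so the counts are a description. Of the 105 genes at least 2-fold lower in siP53 arrays, the siScramble mean was nearer to siP53 or beyond it for 10, between but nearer to siLincp21 for 61 and beyond siLincp21 for 34. For the 54 genes at least 2-fold higher, it was nearer to siP53 for 10, beyond siP53 for 3, nearer to siLincp21 for 28 and beyond siLincp21 for 13. Among all 973 higher calls the siScramble mean was beyond siP53 for 172 and beyond siLincp21 for 205, and among all 1199 lower calls for 192 and 217.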

How the data were processed

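The authors deposited log2 values of 45101 probe sets on 30 arrays; RMA is named in the submitters' processing notes, its version and the scanner settings are not given in the sources used here. Probe sets with 1 gene (34958) were given current RefSeq symbols. For each of 18194 genes the probe set with the highest mean over the 30 arrays was kept, and the lowest 40% of probe sets were left out (limit log2 4.544), leaving 12675 genes. The direct fit used limma 3.58.1 in R 4.3.3 on the 6 arrays (lmFit, eBayes), with Benjamini-Hochberg adjustment over all tested genes and calls at 0.05. The hnRNPKKD pair was fitted alone, and the difference between experiments on 12 arrays with 4 group means. All adjusted p-values are limma's. The code was tested on simulated data.

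Genes named were Cdkn1a and Hnrnpk, the 12 largest called differences each way among genes whose groups do not overlap, up to 4 of each described list by adjusted p, 8 shared between experiments and 6 with the largest difference between them, with provisional names passed over. The arrays compared, the 28 pathway lists and the 9 marker lists were chosen with earlier results of these data known. Same-numbered siP53 and siLincp21 arrays had deviations correlating at 0.212, 0.054 and 0.341 in lincP21KD and -0.033, 0.631 and 0.694 in hnRNPKKD. Arrays of different number gave -0.299 to 0.209 in lincP21KD and -0.702 to 0.347 in hnRNPKKD. Not every same-numbered pair was above 0.1, so the numbers were not treated as pairs in the main fits. These values do not exclude a pairing, and a replicate block was run as an alternative. Alternatives covered scaling, filter, probe sets, variance model, array weights, a replicate block, the other arrays of the experiment and leaving out each array. The number of arrays limits the precision.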

Additional observations from a re-analysis of the deposited data

Results flagged for a closer look

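The siP53 minus siLincp21 difference was compared between the lincP21KD and hnRNPKKD experiments in one limma fit, and 1952 genes passed the test of that difference. Of the genes named in the text, 57 passed it and are given here as lincP21KD minus hnRNPKKD on the log2 scale. A positive value on a gene lower in siP53 arrays means a difference nearer 0 in lincP21KD. The p53 targets of feedback, arrest and death were Cdkn1a (0.88), Mdm2 (1.14), Zmat3 (1.06), Psrc1 (1.96), Rprm (1.51), Perp (1.00), Apaf1 (0.84) and Fas (1.32). The stress and repair targets were Ddit4l (1.15), Pltp (1.24), Tap1 (1.66), Zfp365 (1.58), Ercc5 (0.87), Polk (1.25), Mgmt (1.46), Rrm2b (0.79) and Polh (-0.80). Others of the lowest genes were Celf5 (1.39), Acaa1b (2.07), Tbc1d8 (1.53), Tex15 (1.84), Cdc42bpg (0.82) and Fgfbp3 (1.13). Of the highest genes, the difference was larger in lincP21KD for Mfap5 (2.06), Usp18 (2.01), Coch (1.39), Ppbp (1.14), Cdo1 (0.97), Pag1 (0.52) and Hoxd13 (1.37). Mfap5, Coch and Hoxd13 also stood higher on every hnRNPKKD array of the pair than on any lincP21KD array of the pair. Coch, for example, was at 11.06 to 11.59 in hnRNPKKD and 4.79 to 6.86 in lincP21KD. The largest values belonged to Scn3b (3.51), Icam1 (3.33), Plek2 (3.21), Nipal4 (3.05), St14 (2.71) and Cemip (-3.11). Cell cycle genes gave Dlgap5 (-1.23), Tpx2 (-1.23), Ndc80 (-1.27), Lig1 (-0.60), Pole (-1.0), Rpa2 (-0.92), Rb1 (0.88) and E2f5 (0.93). Lipid synthesis genes gave Elovl6 (-1.72) and Hmgcs1 (-0.82). Named genes called in both experiments with opposite signs, besides Cemip, were Frmd4b (2.21), Ptx3 (-1.95), Cst6 (1.55), Fgf13 (1.51) and Rgs4 (-2.08). The remaining genes were Gas6 (0.81), Pdgfa (0.77), Sulf2 (0.73), Ccl5 (1.28), Cxcl5 (-1.44) and Cd14 (1.64). Groups of 3 arrays were too small for a test of single outlying arrays.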

How the results depend on the processing

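The count of 2172 called genes in lincP21KD stayed within 1.5 times of itself under each alternative that kept all 6 arrays, between 2003 with no filter and 2697 with a replicate block. Leaving out 1 array gave 1209 to 1886 calls in lincP21KD, 2298 to 5803 in hnRNPKKD and 1429 to 4220 for the difference between the experiments. Array weights, whose estimation stopped before it converged in 2 fits, gave 8612 calls in hnRNPKKD and 6325 for the difference. The replicate block gave 5144 calls in hnRNPKKD and 3015 for the difference, although not every same-numbered pair correlated above 0.1, and it gave 15 mitotic calls in place of 7 in lincP21KD. Of the 92 named genes called in lincP21KD, 78 kept call and direction under all 16 alternatives, 14 lost the call under at least 1, and none reversed. Hnrnpk, which had no call, changed sign to -0.039 without siP53 replicate 2, and leaving out each array gave up to 0.159. Fewer arrays carry fewer degrees of freedom, and other causes were not tested. The signal over background of genes near the filter limit of 4.544 is not given by these values.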

Other observations

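Opposite signs between the experiments were called in both fits and in the test of the difference for 45 genes, chosen after their values were seen. Of these, 31 were higher in lincP21KD and lower in hnRNPKKD, and 14 were lower in lincP21KD and higher in hnRNPKKD. After Cemip, the largest were Frmd4b, a membrane scaffold protein, at 0.97 in lincP21KD and -1.23 in hnRNPKKD, and Ptx3, a secreted pentraxin, at -0.86 in lincP21KD and 1.10 in hnRNPKKD. Cst6, a cystatin protease inhibitor, gave 0.75 and -0.80, and Fgf13, an intracellular fibroblast growth factor homologue, 0.84 and -0.67, in the same order. Rgs4, a regulator of G protein signalling, gave -0.51 in lincP21KD, where it lost its call without any one of 4 arrays (adjusted p 0.0846 to 0.145), and 1.57 in hnRNPKKD.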
